A study of Mus musculus with 9 samples.

Results

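Integrins and the proteins of the basement membrane were examined in SIX2 nephron progenitors as 44 of the 26858 genes in the deposited table. The genes were matched by name and not by any measured value: symbols that open with *Itga* or *Itgb* (without *Itga8*, counted here among the progenitor markers, and without the genes of integrin-binding proteins), the numbered laminin chains *Lama*, *Lamb* and *Lamc*, and *Nid1*, *Nid2*, *Hspg2*, *Agrn*, *Dag1* and *Fn1*. The choice gave 17 integrin alpha subunits, 9 integrin beta subunits, 5 laminin alpha, 3 laminin beta and 3 laminin gamma chains, the 6 further genes, and *Itgbl1*, which matches the name pattern but encodes no integrin subunit.

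Cells that express the *Six2-eGFP/cre* transgene were collected by flow sorting from mouse kidneys at E18.5. The 4 control libraries (Cont 71, 72, 73 and 76) came from *Six2-Qpc* heterozygous mice (*Six2-Qpc*+/-), and the 5 mutant libraries (QpcKO 74, 75, 77, 78 and 79) came from *Six2-Qpc* knockout mice (*Six2-Qpc*-/-). *Qpc*, listed in the table as *Uqcrq*, encodes a nuclear-encoded subunit of mitochondrial complex III. Both groups carry a bacterial artificial chromosome in which the *Six2* promoter drives Cre recombinase fused to eGFP, together with floxed *Qpc*, so the controls also express Cre and have 1 inactivated allele, and no Cre-negative library is among the 9. The sort followed the fusion protein and not endogenous SIX2. The paper reports a smaller share of eGFP+ cells in mutant kidneys. It does not fully exclude that differentiating control cells with little GFP were sorted too. The labels give neither litter nor sex and do not say that each library came from a separate embryo, so the p-values measure only the spread between these samples, which may be technical. RNA was reverse-transcribed and amplified from few cells with poly(A) selection, and strand was not kept.

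Integrins are receptors made of 1 alpha and 1 beta subunit that link the extracellular matrix to the actin cytoskeleton. Laminins are trimers of an alpha, a beta and a gamma chain that assemble into the sheet of the basement membrane, where nidogens and the proteoglycans perlecan (*Hspg2*) and agrin (*Agrn*) join them to type IV collagen, while dystroglycan (*Dag1*) is a laminin receptor on the cell surface. Fibronectin (*Fn1*) belongs to the interstitial matrix and is bound by several integrins. In the developing kidney, nephron progenitors form a mesenchymal cap around the ureteric bud, and laminin is laid down around the epithelial vesicle when they undergo mesenchymal to epithelial transition.

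Totals ranged from 21040536 to 23986458 counts per library, and the genotypes overlapped (exact permutation test, 2-sided, p = 0.135; the smallest p that 4 against 5 libraries allow is 0.00794). *Uqcrq* was measured at 107.0, 76.8, 91.1 and 101.4 counts per 1000000 counts (CPM) in the control libraries and at 16.4, 28.2, 22.6, 20.3 and 19.0 CPM in the mutants, and the highest mutant value was well under the lowest control value (log2 fold change -2.14, SE 0.16, adjusted p = 2.09e-05, edgeR). The 12 nephron progenitor markers, *Six2* and *Cited1* among them, summed to 2338 to 2845 CPM in controls and 2335 to 2804 CPM in mutants, so markers of the labelled cell type were present in every library and their sums overlapped between the groups. Of the committed and early nephron markers, 5 of 11 tested fell, and their sum was 711.5 to 1203 CPM in controls and 486.6 to 636.0 CPM in mutants. Of the stroma markers, 9 of 14 tested rose, and their sum went from 174.3 to 288.3 CPM in controls to 434.0 to 1399 CPM in mutants, highest in QpcKO 75 and next in QpcKO 74. Leukocyte and macrophage markers (4 of 11 tested rose) summed to 4.43 to 24.2 CPM in controls and 19.8 to 222.5 CPM in mutants, and endothelial markers (1 of 9 tested rose, 3 fell) to 36.2 to 49.6 CPM and 17.8 to 28.9 CPM. Most of the endothelial sum in controls came from the 3 that fell, *Plvap* (means 17.7 and 4.83 CPM), *Egfl7* (11.55 and 7.19 CPM) and *Cldn5* (9.995 and 2.42 CPM). *Pecam1* rose (means 0.248 and 1.36 CPM). Of the 9 endothelial markers tested, 4 were fitted higher in mutants and 5 lower. No list had a marker at 0 in every library. Podocyte markers (1 of 9 tested rose) summed to 380.9 to 404.6 CPM in controls and 441.5 to 727.9 CPM in mutants. Most of that sum was *Cdkn1c*, which did not pass the threshold (means 254.9 and 325.7 CPM). The marker that rose was *Tcf21* (means 86.9 and 150.7 CPM). Of the 9, 6 were fitted higher in mutants and 3 lower (*Synpo*, *Clic5* and *Plce1*). Ureteric bud markers summed to 65.1 to 94.4 CPM and 55.8 to 114.5 CPM, and tubule epithelium markers to 46.4 to 59.8 CPM and 32.6 to 71.6 CPM. Megakaryocyte and platelet markers summed to 0.67 to 4.67 CPM in controls and 4.65 to 44.6 CPM in mutants, with *Gp9*, *Treml1* and *Clec1b* at 3 reads or fewer in every library. Erythroid markers stayed between 1.39 and 2.65 CPM in all 9 libraries. The part of these cell types in the results given here was not tested. In sorted bulk samples, fewer cells of a type and less RNA per cell cannot be told apart.

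The comparison asked whether the sorted cells of mutants carried a different set of matrix receptors and basement membrane transcripts. Enough reads for a test were found for 32 of the 44 genes. Mutant libraries had more transcript of the integrin subunits *Itga4* and *Itgb8* and of fibronectin. They had less of the collagen receptor subunit *Itga11* and of the laminin alpha chains *Lama5* and *Lama1*. With edgeR's quasi-likelihood test and an adjusted p-value (Benjamini-Hochberg over all genes tested) under 0.05 as the threshold, 6 of 32 genes (18.8%) passed, beside 14.8% of all 14990 genes tested. Of these, 3 rose, where 7.82% of all genes rose, and 3 fell, where 7.02% of all genes fell. The libraries of the 2 genotypes did not overlap in 5 of the 32 genes, beside 15.2% of all genes tested, and each of these 5 was among the 6 past the threshold. The shares lie near those of all genes, so nothing about the group as a whole is read from its number of changed genes. The median log2 fold change was -0.196 over the 32 genes and -0.00851 over all genes, with 14 fitted higher and 18 lower in mutants, and 11 of the 32 had an unadjusted p under 0.05. Taken 1 gene at a time, a 2-sided exact permutation test of log2(CPM + 0.5) gave p = 0.00794, the smallest possible, for *Itga4*, *Itga11* and *Lama1*, p = 0.0159 for *Itgb8* and p = 0.0238 for *Fn1* and *Lama5*.

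**Figure D1:**
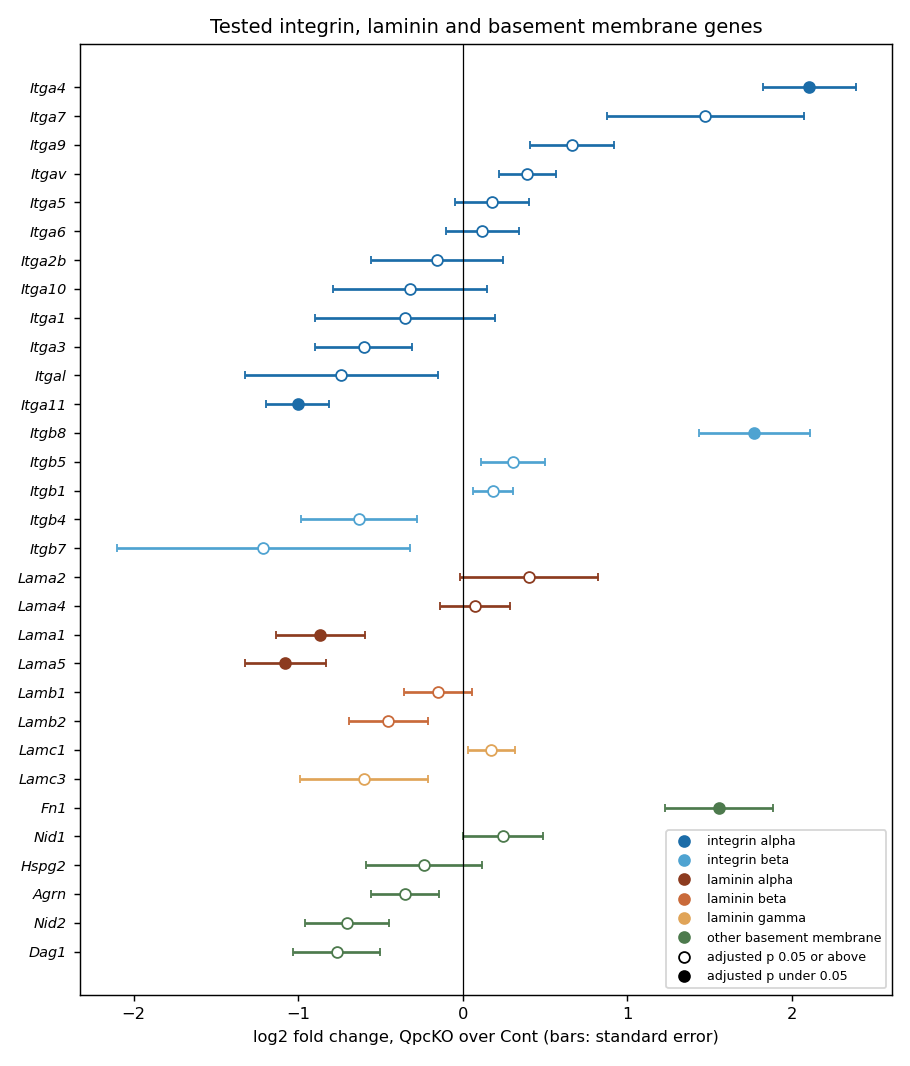
Log2 fold change of QpcKO over Cont (horizontal axis, bars are the standard error derived from the edgeR test) for 31 of the 32 tested genes, ordered within class. Filled points have an adjusted p under 0.05. Itga4, Itgb8 and Fn1 lie to the right at 2.11, 1.77 and 1.56, and Itga11, Lama5 and Lama1 to the left at -1.0, -1.08 and -0.87.

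Among the integrin alpha subunits, 12 of 17 were tested, 1 rose and 1 fell. *Itga4* (ENSMUSG00000027009, chr2:79255426-79333123, mm10) encodes alpha4, which pairs with beta1 or beta7 and binds fibronectin and VCAM1. It was at 2.002, 1.56, 1.85 and 3.38 CPM in the control libraries and at 8.44, 7.00, 9.64, 12.8 and 9.57 CPM in the mutants. All 5 mutants lay above all 4 controls, at 9.49 ± 2.14 CPM (SD, n = 5) against 2.20 ± 0.81 CPM (SD, n = 4), a 4.31-fold difference (log2 fold change 2.11, SE 0.28, edgeR adjusted p = 0.000848). Without strand, reads from 1124 bases (8.04%) of its exons cannot be told from those of *Cerkl* on the opposite strand, a gene with at most 4 reads in any library. Leukocytes also carry alpha4. Their marker sum was highest in QpcKO 77 among mutants (222.5 CPM) and in Cont 76 among controls (24.2 CPM), and the platelet marker sum was highest in QpcKO 78 (44.6 CPM). *Itga4* was highest in QpcKO 78, next in QpcKO 77, and in Cont 76 among controls. QpcKO 74 had a lower leukocyte marker sum (19.8 CPM) than Cont 76 but more *Itga4* (8.44 against 3.38 CPM). The part of such cells in the rise was not tested.

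*Itga11* (ENSMUSG00000032243, chr9:62677826-62783982) encodes alpha11, a collagen-binding subunit of mesenchymal cells that pairs with beta1. Control libraries had 27.9, 20.6, 23.0 and 20.7 CPM, and mutant libraries 15.4, 13.4, 9.95, 9.05 and 9.62 CPM. The genotypes did not overlap, and the mutant mean of 11.5 ± 2.76 CPM (SD, n = 5) was 0.499 times the control mean of 23.0 ± 3.40 CPM (SD, n = 4; log2 fold change -1.0, SE 0.19, edgeR adjusted p = 0.00534). The stroma marker sum was higher in mutants, where *Itga11* was lower, but among the mutants QpcKO 74 and 75 had the highest values of both.

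The subunits that bind laminin did not pass the threshold. *Itga3* was at 16.5, 35.5, 32.2 and 16.7 CPM in controls and 22.9, 8.32, 18.4, 19.1 and 14.4 CPM in mutants (log2 fold change -0.60, SE 0.29, edgeR adjusted p = 0.180). *Itga6* was at 18.1, 27.9, 25.8 and 14.7 CPM in controls and 30.9, 17.9, 17.8, 23.3 and 27.5 CPM in mutants (log2 fold change 0.12, SE 0.22, edgeR adjusted p = 0.752). For both, the range of the control libraries covered most of the mutant ones, and Cont 72 and Cont 73 were the high controls. *Itga7*, a further laminin receptor subunit best known from muscle, was near its limit of measurement at 0.37 ± 0.11 CPM in controls (SD, n = 4) and 1.04 ± 0.85 CPM in mutants (SD, n = 5; log2 fold change 1.48, SE 0.60, edgeR adjusted p = 0.110), with QpcKO 74 alone at 2.47 CPM.

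The alpha subunits of the group that recognise the RGD motif of fibronectin and vitronectin also did not pass the threshold. *Itgav*, whose product pairs with several beta subunits, was at 20.6, 23.8, 24.6 and 31.5 CPM in controls and 33.6, 42.6, 25.3, 33.7 and 29.6 CPM in mutants (log2 fold change 0.39, SE 0.17, edgeR adjusted p = 0.139). Of the 5 mutants, 3 were above every control, and 634 exonic bases (5.90%) are shared with *Gm13684* on the opposite strand. *Itga5*, which with beta1 forms the classical fibronectin receptor and had the highest level per length of the alpha subunits, was at 17.3, 32.5, 30.3 and 31.5 CPM in controls and 40.3, 25.6, 23.3, 27.0 and 41.9 CPM in mutants (log2 fold change 0.18, SE 0.22, edgeR adjusted p = 0.626). The groups overlapped, and Cont 71 alone was low among the controls. *Itga9*, a receptor for tenascin and other ligands, was at 11.7 ± 3.55 CPM in controls and 18.47 ± 5.72 CPM in mutants (SD, n = 4 and 5; log2 fold change 0.66, SE 0.26, edgeR adjusted p = 0.0937). The collagen-binding subunits *Itga1* and *Itga10*, the platelet subunit *Itga2b* and the leukocyte subunit *Itgal* had means of 0.805 to 1.83 CPM in both groups, and none passed the threshold (edgeR adjusted p from 0.420 to 0.826). *Itga10* shares 1739 exonic bases (33.5%) with *Gm42957* on the same strand and is uncertain.

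Of the integrin beta subunits, 5 of 9 were tested and 1 rose. *Itgb8* (ENSMUSG00000025321, chr12:119158022-119238802) encodes beta8, which pairs with alphav and is known for binding latent TGF-beta. It was at 1.96, 2.06, 2.49 and 2.11 CPM in controls and at 8.27, 11.6, 2.91, 7.03 and 7.08 CPM in mutants. Controls lay close together, at 2.16 ± 0.23 CPM (SD, n = 4), and mutants were spread at 7.37 ± 3.10 CPM (SD, n = 5), with QpcKO 77 just above the highest control and QpcKO 75 the highest. The log2 fold change was 1.77 (SE 0.34, edgeR adjusted p = 0.00540), and it was 1.55 without QpcKO 75, the library with the highest stroma marker sum.

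*Itgb1*, the common partner of most alpha subunits and the most abundant gene of the group, was at 289.0, 402.3, 424.0 and 373.7 CPM in controls and 432.2, 407.5, 415.4, 397.6 and 458.4 CPM in mutants. The mutant libraries lay within or just above the control range (log2 fold change 0.18, SE 0.12, edgeR adjusted p = 0.334). *Itgb5*, a partner of alphav, was at 141.1, 167.0 and 142.9 CPM in Cont 71, 72 and 73, lower in Cont 76 (2370 reads against 3311 to 4289), and at 257.9, 155.5, 126.6, 150.4 and 161.0 CPM in mutants (log2 fold change 0.31, SE 0.20, edgeR adjusted p = 0.313). Only QpcKO 74 exceeded the control range. *Itgb4*, the partner of alpha6 in epithelial hemidesmosomes, was at 2.06 ± 0.67 CPM in controls and 1.32 ± 0.38 CPM in mutants (SD, n = 4 and 5, edgeR adjusted p = 0.244). *Itgb7*, a leukocyte subunit, was at 0.73 ± 0.42 CPM in controls and 0.31 ± 0.40 CPM in mutants (SD, n = 4 and 5, edgeR adjusted p = 0.381).

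**Figure D2:**
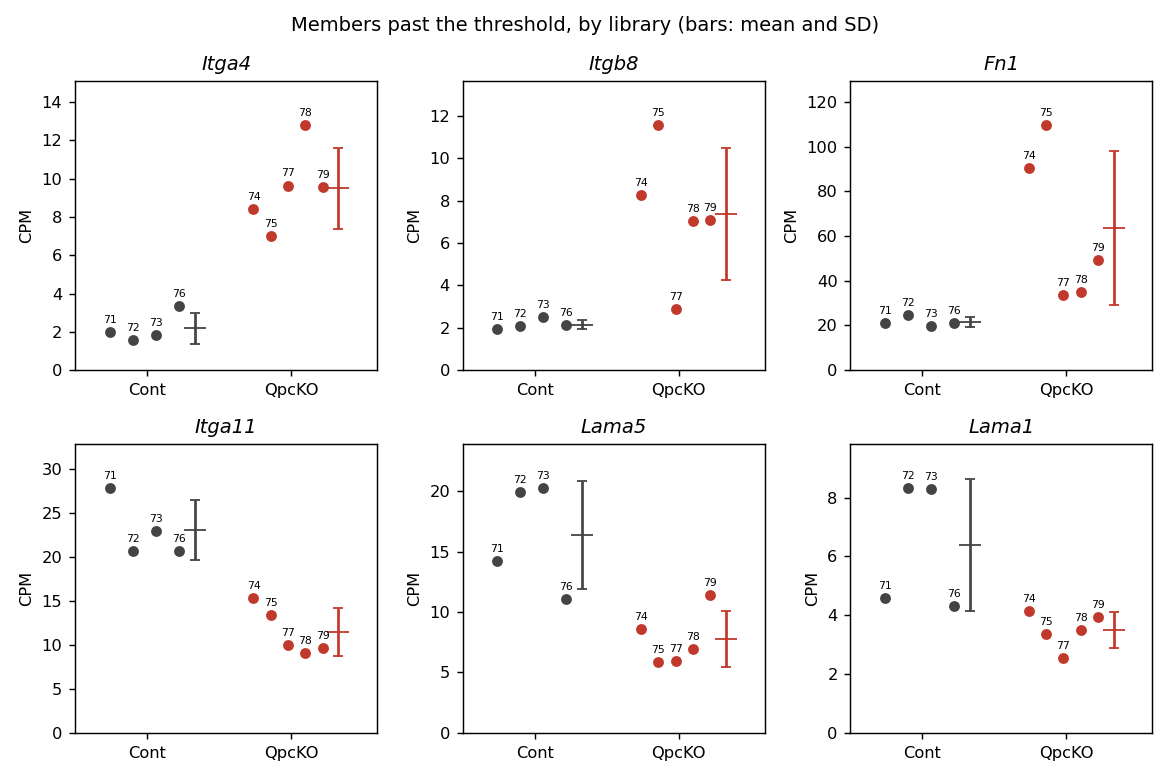
CPM (vertical axis, from 0) of the 6 genes past the threshold in each library, numbered as in the labels, with the mean and SD of each genotype beside the points. The 5 mutant points lie apart from the 4 control points in every panel except Lama5, where QpcKO 79 at 11.4 CPM is above Cont 76 at 11.1 CPM.

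The laminin chains gave 9 tested genes of 11, of which 2 fell, both alpha chains. *Lama5* (ENSMUSG00000015647, chr2:180176373-180225859) encodes the alpha5 chain, found in the main laminins of mature kidney basement membranes. It was at 14.2, 19.9, 20.3 and 11.1 CPM in controls and at 8.61, 5.85, 5.97, 6.94 and 11.4 CPM in mutants. Of the 5 mutants, 4 were below every control, and QpcKO 79 was level with the lowest control, Cont 76. The mean was 16.4 ± 4.49 CPM (SD, n = 4) in controls and 7.75 ± 2.32 CPM (SD, n = 5) in mutants (log2 fold change -1.08, SE 0.25, edgeR adjusted p = 0.0129), and without Cont 73 the edgeR adjusted p was 0.0515.

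*Lama1* (ENSMUSG00000032796, chr17:67697265-67822645) encodes alpha1, the chain of early embryonic and nascent tubule basement membranes. Controls had 4.60, 8.33, 8.30 and 4.30 CPM, and mutants had 4.13, 3.37, 2.55, 3.49 and 3.95 CPM. The groups did not overlap, but the 2 lower controls lay close to the mutants, and the controls fell into a high pair (Cont 72 and 73) and a low pair (Cont 71 and 76). The mean was 6.38 ± 2.24 CPM (SD, n = 4) against 3.50 ± 0.62 CPM (SD, n = 5; log2 fold change -0.87, SE 0.27, edgeR adjusted p = 0.0470). The adjusted p rose above the threshold in 10 of 18 alternative settings, among them the removal of Cont 72 (edgeR adjusted p = 0.152) or Cont 73 (0.160). Cont 72, Cont 73 and QpcKO 79 were also the libraries with Y-linked transcripts (263.2 to 327.6 CPM, against at most 0.177 CPM in the others), and with Y-linked expression as a covariate the edgeR adjusted p of *Lama1* was 0.122.

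The other laminin chains did not pass the threshold. *Lama4*, the alpha chain of mesenchymal and endothelial laminins and the most abundant alpha chain per length, was at 38.1, 47.0, 57.5 and 23.0 CPM in controls and 51.0, 44.4, 37.2, 38.8 and 46.8 CPM in mutants (log2 fold change 0.08, SE 0.21, edgeR adjusted p = 0.844). Every mutant value fell between the lowest and the highest control. *Lama2*, the alpha chain of muscle laminin, was low at 3.15 ± 1.43 CPM and 4.16 ± 2.28 CPM (SD, n = 4 and 5, edgeR adjusted p = 0.549). *Lamb1*, the beta chain of the embryonic laminins, was at 54.2, 77.6, 74.4 and 35.4 CPM in controls and 67.9, 49.3, 52.7, 44.1 and 58.3 CPM in mutants (log2 fold change -0.15, SE 0.21, edgeR adjusted p = 0.662). *Lamb2*, which takes the place of beta1 in the mature glomerulus, was at 21.8 ± 5.83 CPM in controls and 15.9 ± 4.54 CPM in mutants (SD, n = 4 and 5; log2 fold change -0.45, SE 0.24, edgeR adjusted p = 0.219). Both beta chains thus overlapped between the genotypes. *Lamc1*, the gamma chain that nearly all laminins share, was at 61.1, 75.7, 86.5 and 58.5 CPM in controls and 86.1, 84.0, 68.2, 70.0 and 89.5 CPM in mutants (log2 fold change 0.17, SE 0.14, edgeR adjusted p = 0.430). *Lamc3*, a minor gamma chain, was at 3.12 CPM in controls and 2.06 CPM in mutants (edgeR adjusted p = 0.320).

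Levels of different chains were compared per length, as CPM per kilobase of the gene length in the table. *Lama4* made up 73.1 ± 4.2% of the summed laminin alpha level in controls (68.1 to 76.9%, SD, n = 4) and 83.0 ± 2.40% in mutants (79.6 to 85.6%, SD, n = 5). *Lama5* made up 15.7 ± 1.33% in controls (14.3 to 17.4%) and 7.76 ± 1.65% in mutants (5.70 to 10.3%). *Lama1* made up 7.24 ± 1.03% in controls (5.89 to 8.08%) and 4.21 ± 0.42% in mutants (3.73 to 4.81%). For all 3 chains the shares of the genotypes did not overlap, including those of *Lama5* and *Lama4*, whose CPM did. Shares of 1 sum depend on each other, so these are not 3 separate results. The summed alpha level itself was 9.30 ± 3.04 CPM per kilobase in controls and 8.72 ± 1.26 in mutants (SD, n = 4 and 5), with overlapping ranges. *Lamb1* made up 72.2 ± 5.31% of the beta chains in controls and 76.9 ± 5.10% in mutants, and *Lamc1* 86.5 ± 3.33% and 91.7 ± 2.20% of the gamma chains.

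**Figure D3:**
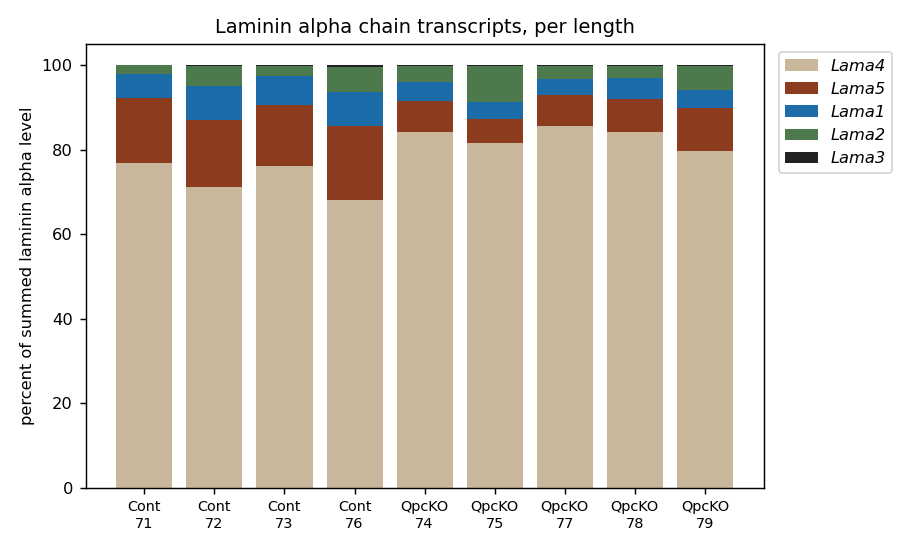
Each laminin alpha chain as a percentage of the summed laminin alpha level (CPM per kilobase) in each of the 9 libraries, with bars stacked to 100%. The Lama5 and Lama1 segments are smaller in each of the 5 mutant libraries than in each of the 4 control libraries, and the Lama4 segment is larger.

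In the integrin classes, *Itgb1* made up 68.0 ± 5.48% of the summed beta level in controls and 66.6 ± 5.64% in mutants, and *Itgb5* made up 31.2 ± 5.48% and 32.5 ± 5.68% (SD, n = 4 and 5). *Itgb8* was a minor subunit in both, at 0.180% and 0.523%. The alpha subunits were more evenly divided. *Itga5* made up 22.6% of the summed alpha level in controls and 25.3% in mutants, and *Itga11* made up 17.0% and 8.26%. *Itga4* went from 0.833% to 3.55%, so even in mutants it was less abundant per length than *Itga5*, *Itga6*, *Itgav*, *Itga3*, *Itga9* and *Itga11*. The summed alpha level was 28.1 ± 4.43 CPM per kilobase in controls and 28.2 ± 5.06 in mutants, and the summed beta level 143.2 ± 19.1 and 167.3 ± 19.4 (SD, n = 4 and 5).

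**Figure D4:**
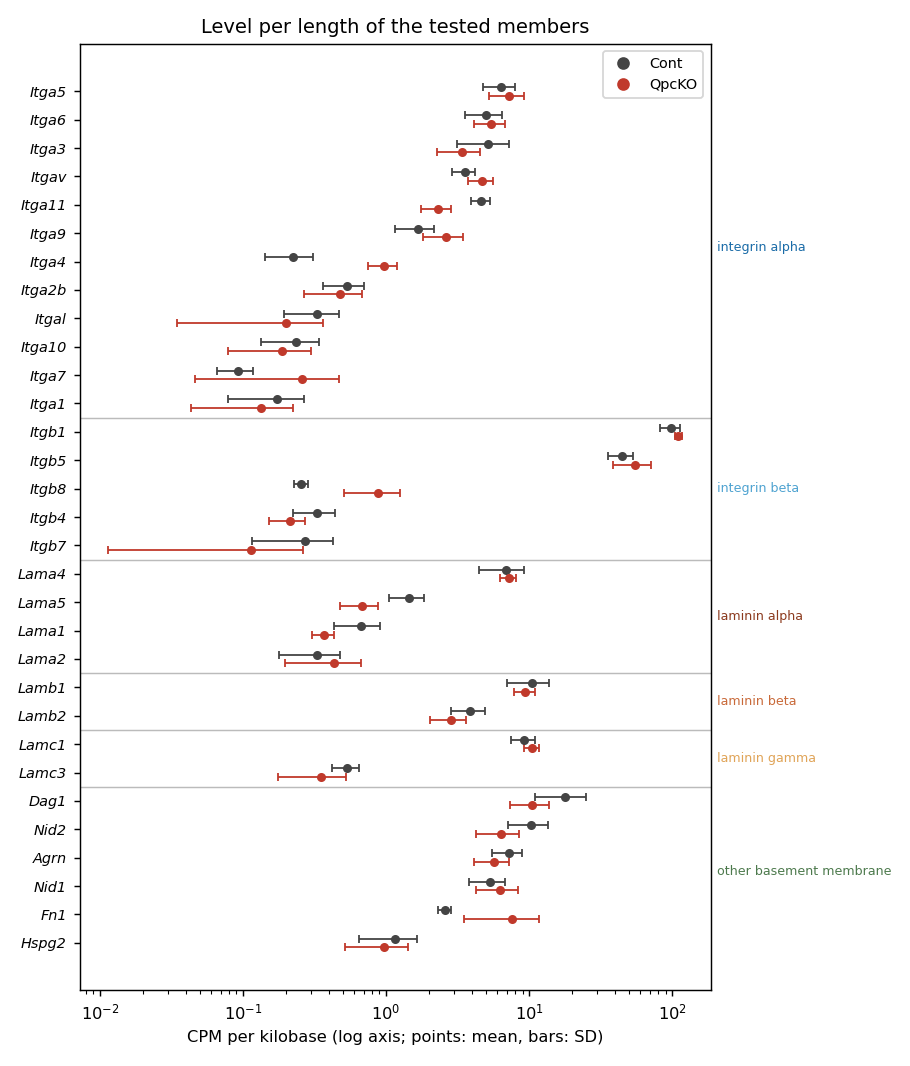
Level per length of 31 of the 32 tested genes in CPM per kilobase (horizontal log axis, points are means and bars the SD; Cont, n = 4, dark, and QpcKO, n = 5, red), grouped by class. Itgb1 (97.6 in Cont) and Itgb5 (44.6) are the highest of all, and Dag1 (18.0) leads the other basement membrane genes; the lower bar of Itgb7 in QpcKO, whose SD exceeds its mean, is cut short to fit the log axis.

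Of the further matrix genes, all 6 were tested and 1 rose. *Fn1* (ENSMUSG00000026193, chr1:71585520-71653200) was at 20.96, 24.8, 19.6 and 21.05 CPM in controls and at 90.3, 109.6, 33.7, 34.8 and 49.1 CPM in mutants. All 5 mutants were above all controls, but 2 of them, QpcKO 74 and 75, were far above the other 3. The mean was 21.6 ± 2.27 CPM (SD, n = 4) in controls and 63.5 ± 34.5 CPM (SD, n = 5) in mutants, a 2.94-fold difference (log2 fold change 1.56, SE 0.33, edgeR adjusted p = 0.00966). QpcKO 75 and 74 also had the highest stroma marker sums, 1399 and 836.1 CPM. Without QpcKO 75 the log2 fold change was 1.27, and with no filter on low counts the edgeR adjusted p was 0.0612. The gene shares 292 exonic bases (2.50%) with *Apol7d* on the opposite strand, a gene with at most 31 reads in any library.

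The receptor and linkers of the basement membrane did not pass the threshold, with lower means in mutants for *Dag1*, *Nid2*, *Hspg2* and *Agrn* and a higher mean for *Nid1*. *Dag1* was at 46.1, 111.4, 97.7 and 61.9 CPM in controls and 64.1, 28.5, 47.0, 37.2 and 56.3 CPM in mutants (log2 fold change -0.77, SE 0.26, edgeR adjusted p = 0.0665). *Nid2*, a nidogen, was at 50.7 ± 15.6 CPM in controls and 31.1 ± 10.3 CPM in mutants (SD, n = 4 and 5; log2 fold change -0.70, SE 0.26, edgeR adjusted p = 0.0782). Both passed with DESeq2 and with limma-voom, but in other alternatives the edgeR adjusted p reached 0.212 for *Dag1* and 0.222 for *Nid2*. Both have their 2 highest values in Cont 72 and 73, the controls with Y-linked transcripts. With Y-linked expression as a covariate the edgeR adjusted p of *Dag1* was 0.172. *Nid2* shares 437 exonic bases (8.45%) with *Rtraf* on the opposite strand. *Nid1*, the other nidogen, was at 27.4, 40.1, 39.1 and 21.4 CPM in controls and 54.2, 47.4, 25.0, 29.5 and 33.6 CPM in mutants (log2 fold change 0.25, SE 0.24, edgeR adjusted p = 0.531). *Hspg2* was at 12.99, 23.8, 20.5 and 7.97 CPM in controls and 22.5, 9.92, 7.45, 10.4 and 18.9 CPM in mutants (log2 fold change -0.23, SE 0.35, edgeR adjusted p = 0.691). *Agrn* was at 62.3 ± 14.9 CPM and 48.9 ± 13.2 CPM (SD, n = 4 and 5, edgeR adjusted p = 0.265). For each of these 5 genes the control and mutant libraries overlapped.

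The 12 genes with too few reads for the test were *Itga2*, *Itgad*, *Itgae*, *Itgam*, *Itgax*, *Itgb2*, *Itgb2l*, *Itgb3*, *Itgb6*, *Lama3*, *Lamb3* and *Itgbl1*, and none had more than 24 reads in a library. *Itgb2* and *Itgam*, the subunits of the macrophage integrin alphaM beta2, were the 2 of these 12 whose libraries did not overlap. Over all genes tested that share was 15.2%, but it was not counted over all genes with too few reads, so nothing is read from this count. *Itgb2* had 2, 4, 0 and 4 reads in controls and 7, 14, 8, 14 and 15 in mutants, and *Itgam* had 1, 3, 0 and 1 reads in controls and 4, 8, 5, 16 and 24 in mutants. Both passed the threshold with DESeq2, *Itgam* also with no filter on low counts and *Itgb2* also without Cont 76. The leukocyte marker sum was also higher in mutants, as given with the markers. *Itgam* shares 3450 exonic bases (68.7%) with *Gm49368* on the same strand, so its reads are uncertain. *Lamb3*, a chain of epithelial laminin, had at most 4 reads, and *Itgbl1* had 1 read in 1 library.

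Library differences ran through the group. Of the 32 tested genes, 18 had their highest control value in Cont 72 and 9 in Cont 73, while 14 had their lowest in Cont 76 and 9 in Cont 71. Among mutants, QpcKO 74 had the highest value of 17 genes and the lowest of 0, and QpcKO 77 had the lowest of 15. Genes of the group thus tended to deviate together within a library, but the same was not counted over all genes. The surrogate variable fitted to all tested genes was highest in Cont 72 (0.479), QpcKO 74 (0.359) and Cont 73 (0.331). It was lowest in QpcKO 77 (-0.462), so the pattern is not read as a trait of the group.

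**Figure D5:**
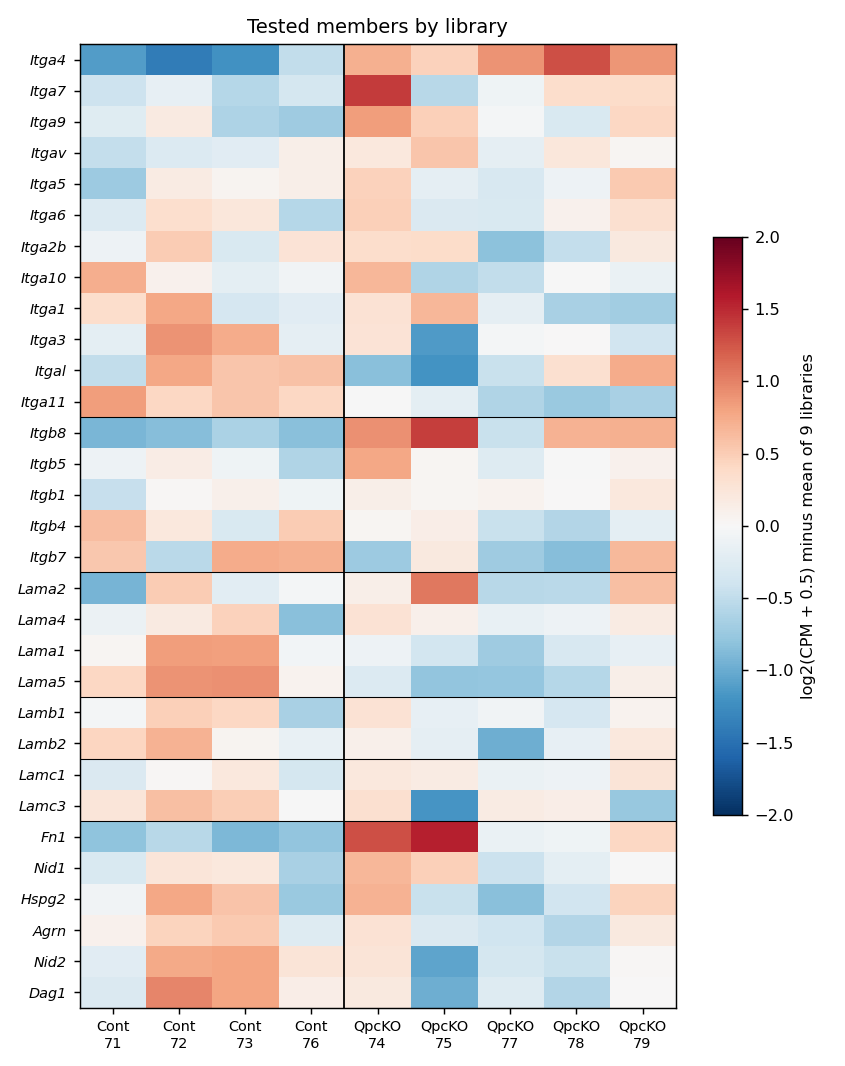
Log2(CPM + 0.5) of 31 tested genes, each minus its mean over the 9 libraries (color scale, from -2 to 2), with genes in rows by class and libraries in columns. Itga4, Itgb8 and Fn1 are above their mean in most mutant columns and below it in all 4 control columns, and the columns of Cont 72 and Cont 73 are high across most laminin and basement membrane rows.

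Promoter sequence was looked up for the 6 genes past the threshold, to show the start regions of genes that moved in opposite directions. Entries were found for 4 of them, and for 28 of all 44 genes, in RefSeq (GRCm38.p6). The RefSeq start differs from the gene start in the deposited coordinates for *Itgb8* and *Itga11*. The *Itgb8* window lies wholly inside the coordinates given above for that gene, and the *Itga11* window runs past its deposited start. Sequence before the deposited start of *Itgb8* was therefore not searched. The 250 bases before the RefSeq start are given 5′ to 3′ on the strand of the gene in lower case, and capitals mark the GC box GGGCGGG, the core of the sequence that Sp1-type factors bind.
Itga4 (chr2:79255176-79255425, plus strand): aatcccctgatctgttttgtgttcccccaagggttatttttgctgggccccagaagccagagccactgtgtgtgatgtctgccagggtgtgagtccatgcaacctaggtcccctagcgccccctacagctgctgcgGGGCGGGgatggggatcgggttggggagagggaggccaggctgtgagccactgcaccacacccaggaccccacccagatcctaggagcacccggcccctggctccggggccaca
Itga11 (chr9:62677605-62677854, plus strand): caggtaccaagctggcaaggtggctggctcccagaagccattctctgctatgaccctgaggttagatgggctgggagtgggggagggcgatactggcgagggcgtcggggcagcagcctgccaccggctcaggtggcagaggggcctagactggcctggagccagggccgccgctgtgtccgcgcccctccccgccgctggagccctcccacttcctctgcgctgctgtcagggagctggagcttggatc
Itgb8 (chr12:119238277-119238526, minus strand): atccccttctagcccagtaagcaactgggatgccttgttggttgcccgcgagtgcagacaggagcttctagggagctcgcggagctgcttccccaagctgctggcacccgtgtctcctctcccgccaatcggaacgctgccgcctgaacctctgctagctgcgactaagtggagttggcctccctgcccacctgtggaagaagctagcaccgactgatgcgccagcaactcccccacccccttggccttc
Lama5 (chr2:180225860-180226109, minus strand): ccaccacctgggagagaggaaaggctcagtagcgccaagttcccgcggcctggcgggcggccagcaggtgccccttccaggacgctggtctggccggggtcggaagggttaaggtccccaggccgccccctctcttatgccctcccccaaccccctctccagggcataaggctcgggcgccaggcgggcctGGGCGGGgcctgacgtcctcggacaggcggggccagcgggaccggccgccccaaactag

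The GC box, searched on both strands, was found once each in the windows of *Itga4*, which rose, and *Lama5*, which fell, and not in those of *Itga11* and *Itgb8*. It was present in 23.4% of all 32851 promoters in RefSeq's table and in 11 of the 33 promoters of the group. Those 11 belong to 9 of the 28 genes of the group with an entry. The cyclic AMP response element TGACGTCA (1.55% of all promoters) and the amino acid response motif TGATGNAA bound by ATF4 with CEBP partners (3.45%) were found in 0 of the 28, on either strand. These are matches of letters in a short window and say nothing of binding.

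Genes that work with the group were read from 4 lists, integrin adhesion machinery, other basement membrane components, the dystroglycan complex with its glycosylation enzymes, and other integrin ligands. Together 22 of 99 tested genes passed (22.2%, beside 14.8% of all genes), 14 higher and 8 lower in mutants. Of the adhesion machinery, which couples integrin tails to actin, 3 of 25 tested genes passed (12%), each of them higher. *Fermt2*, which encodes kindlin-2, an activator of beta subunits, was at 84.7 ± 7.33 CPM in controls and 113.5 ± 7.54 CPM in mutants (SD, n = 4 and 5; log2 fold change 0.42, edgeR adjusted p = 0.0198). *Tgfb1i1*, the focal adhesion adaptor Hic-5, went from 10.8 to 20.4 CPM (log2 fold change 0.92, edgeR adjusted p = 0.0340), and *Apbb1ip*, the talin recruiter RIAM that is abundant in blood cells, from 0.083 to 0.97 CPM (log2 fold change 3.47, edgeR adjusted p = 0.0135). The kinase-like adaptor *Ilk* had 3 reads or fewer in every library, and 76.7% of its exonic bases lie opposite *Taf10*, so its level cannot be read from this table.

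Of the other basement membrane components, 7 of 26 tested genes passed (26.9%), 5 higher and 2 lower, and the summed level of the list was 2753 to 3013 CPM in controls and 2089 to 2299 CPM in mutants. Most of that sum was *Sparc*, a matrix glycoprotein that binds collagen. *Sparc* fell from 2140 ± 128.3 CPM to 1373 ± 33.3 CPM (SD, n = 4 and 5; log2 fold change -0.64, edgeR adjusted p = 0.00196). Its fall was larger than that of the mean sum (2890 CPM in controls, 2187 CPM in mutants). The lower sum is therefore not read as a fall of the list as a whole. *Col18a1*, the collagen that yields endostatin, fell from 64.6 to 31.0 CPM (log2 fold change -1.06, edgeR adjusted p = 0.0198). *Frem1*, of the FRAS1 complex at the border of epithelium and mesenchyme, rose from 48.9 ± 9.15 CPM to 102.0 ± 8.85 CPM (SD, n = 4 and 5; log2 fold change 1.06, edgeR adjusted p = 0.000766). *Ntn1*, also a stroma marker here, rose from 1.12 to 16.3 CPM (log2 fold change 3.85, edgeR adjusted p = 0.00123). *Smoc2* (log2 fold change 1.35), *Col4a4* (2.38) and *Hmcn1* (0.44) were the others that rose. *Col4a1* and *Col4a2*, the common chains of type IV collagen, had log2 fold changes of -0.03 and -0.13 and did not pass.

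Of the dystroglycan list, 7 of 27 tested genes passed (25.9%), 4 higher and 3 lower. The 3 that fell encode enzymes of the sugar chain by which dystroglycan binds laminin. *Pomt1* fell from 35.8 ± 5.37 CPM to 17.8 ± 3.04 CPM (SD, n = 4 and 5; log2 fold change -1.01, edgeR adjusted p = 0.00234), *Gyltl1b* (*Large2*) from 39.8 to 16.6 CPM (log2 fold change -1.26, edgeR adjusted p = 0.00599) and *Pomgnt2* from 17.9 to 10.6 CPM (log2 fold change -0.76, edgeR adjusted p = 0.0471). *Tmem5*, a further enzyme of that chain, rose by 0.39 on the log2 scale. *Sgce* (2.26) and *Dtna* (0.41), of the sarcoglycan and dystrobrevin complex, rose on the same scale. *Sgce* was at 1.72 ± 0.86 CPM in controls (SD, n = 4). In mutants it was spread at 8.24 ± 6.76 CPM (SD, n = 5), from 4.23 to 20.2 CPM. The list thus held enzymes that changed in both directions.

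Of the other integrin ligands, 5 of 22 tested genes passed (22.7%), 2 higher and 3 lower. *Thbs1*, thrombospondin-1, rose from 9.37 ± 2.95 CPM to 41.3 ± 17.0 CPM (SD, n = 4 and 5; log2 fold change 2.14, edgeR adjusted p = 0.00116). *Tgfb1*, whose latent form carries an RGD motif bound by alphav integrins, rose from 0.78 to 2.32 CPM (log2 fold change 1.57, edgeR adjusted p = 0.0209). *Vtn*, vitronectin, fell from 4.23 to 1.06 CPM (log2 fold change -1.99, edgeR adjusted p = 0.00430). *Mfge8*, an RGD ligand of alphav integrins, fell from 518.6 to 335.3 CPM (log2 fold change -0.63, edgeR adjusted p = 0.00606), and *Igsf8*, a membrane partner of integrins, from 71.4 to 44.9 CPM (log2 fold change -0.67, edgeR adjusted p = 0.0147). Ligands that bind alphav integrins were therefore found on both sides. The joined lists counted 38 genes with limma-voom and 13 without Cont 73.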

How the data were processed

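RNA of sorted eGFP+ cells was sequenced in 4 control and 5 mutant libraries. The deposited table holds read counts per gene for each library, made by the authors, and gene coordinates. The submitters' processing notes name STAR, DESeq2 and the build mm10 without roles or versions, and the counting tool is not given in the sources used here. The deposited gene length is given in bases. The authors' FPKM, normalized signal, log2 fold change and p-value columns were not used. Gene identifiers were taken by symbol from GENCODE M21, because those of some rows in the table did not match their symbols.

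Counts were kept by filterByExpr, scaled by TMM and tested with edgeR 4.0.16 (glmQLFit, robust) in R 4.3.3, with Benjamini-Hochberg adjustment over 14990 genes and a threshold of 0.05. CPM are counts per 1000000 of the normalized library size, and the SE is that of the fitted log2 fold change. Exact permutation tests ran over all 126 assignments of libraries. Alternatives were DESeq2 1.42.0, RLE and upper-quartile scaling, no filter beyond 1 count, a minimum of 10 counts in each library, limma-voom (limma 3.58.1), 1 surrogate variable (sva 3.50.0), Y-linked expression as a covariate, each library left out, and Cont 76 with QpcKO 75 left out. Motifs and RefSeq promoters were read in Python 3.11.15 and figures drawn with matplotlib 3.10.9.

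Genes past the threshold, *Itgb1*, *Lama1*, *Lama5*, *Lamb1*, *Lamc1*, *Fn1*, *Dag1*, *Nid1*, *Hspg2*, *Itga3*, *Itga6*, *Itgav* and the highest gene per length of each class were given in every library, and at most 6 passing genes in each direction were named from a related list. Some genes of the group and of the related lists are counted but not reported here by name. *Itgb2* and *Itgam* were singled out after their values were seen. The genes were matched by name alone, but the choice of this group, the 4 related lists and the 10 marker lists was made with earlier results of these data known. Depth was similar across libraries, so the spread between them, and for low genes the number of reads, set the precision.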

Additional observations from a re-analysis of the deposited data

Results flagged for a closer look

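In 2 cases a value lay far from the other libraries of its group by Dixon's test, of 66 groups checked, where about 1 in 20 would do so by chance (3.3 groups). *Itga5* was at 17.3 CPM in Cont 71, with the other controls between 30.3 and 32.6 CPM. *Itgb5* was at 258 CPM in QpcKO 74, with the other mutants between 127 and 161 CPM.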

How the results depend on the processing

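*Itga4*, *Itgb8* and *Itga11* passed the threshold in all 18 alternatives. *Lama1* failed in 10 of them, *Lama5* only without Cont 73, and *Fn1* only with no filter on low counts, and the cause was not tested. Over the 32 tested genes and 572 alternative values, 527 kept direction and side of the threshold, 12 no longer passed, 15 newly passed and 18, from 10 genes that did not pass, changed sign.

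The number of genes of the group past the threshold was 11 with DESeq2 (6 higher, 5 lower) and 11 with limma-voom (8 lower), and 7 were higher with 1 surrogate variable. Leaving out 1 library gave 4 to 8 genes, 3 to 4 of them higher and 1 to 5 lower, with 1 lower without Cont 73 and 5 lower without QpcKO 74. The joined related lists gave 38 genes with limma-voom and 13 to 25 with 1 library left out, lowest without Cont 73. Adhesion machinery gave 7 with limma-voom and 1 to 3 with 1 library left out (1 without Cont 73, QpcKO 75 or QpcKO 78). The dystroglycan list gave 13 with limma-voom, 4 with no filter and 3 to 8 with 1 library left out (3 or 4 without any of Cont 71, 72 and 73 and QpcKO 75, 77, 78 and 79), and other ligands gave 9 with limma-voom. All genes past the threshold numbered 4858 with limma-voom and 1046 to 3136 with 1 library left out (1046 without Cont 73, 1272 without Cont 72, 1354 without Cont 71 and 1336 without QpcKO 78).

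Signs changed in the following cases. With 1 surrogate variable the log2 fold change was 0.32 for *Hspg2*, 0.15 for *Lamb1* and 0.017 for *Itga2b*, and with the Y-linked covariate 0.089 for *Hspg2* and 0.040 for *Lamb1*. With limma-voom it was -0.0069 for *Itga5*, -0.085 for *Itga6*, -0.17 for *Lama4*, -0.016 for *Lamc1* and -0.070 for *Nid1*, and without Cont 76 and QpcKO 75 it was -0.12 for *Lama4*. With 1 library left out it ran from -0.48 to 0.0034 for *Hspg2*, -0.75 to 0.030 for *Itga1*, -0.72 to 0.024 for *Itga10*, -0.31 to 0.040 for *Itga2b*, -0.014 to 0.27 for *Itga6* and -0.11 to 0.27 for *Lama4*. No paired analysis was possible because control and mutant libraries share no replicate number. *Itgam* passed with DESeq2 and with no filter, and *Itgb2* with DESeq2 and without Cont 76, on at most 24 reads in a library.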
